A study of Mus musculus with 15 samples.

Results

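Quadriceps RNA from dystrophic mice given prednisone on either of 2 schedules was compared with RNA from mice given the solvent, and the genes described are those on which both schedules moved away from vehicle together. A gene was taken as separating when all 10 prednisone libraries lay above, or all 10 lay below, all 5 vehicle libraries. Of 14272 named genes, 14059 had at least 1 CPM (a read count divided by the library's total and scaled to a common total) in at least 5 libraries, and 324 of these (2.3%) separated, 170 above vehicle and 154 below it. All 15 libraries of the series were used. All 3 groups were male DBA/2J-mdx mice, which carry the mdx mutation of the dystrophin gene on the DBA/2J background and model Duchenne muscular dystrophy, so the controls are dystrophic too. Vehicle mice were injected intraperitoneally with DMSO 7 times a week. Weekly mice had 1 injection of prednisone (1 mg/kg) and 6 of vehicle in each week, and daily mice had 7 injections of prednisone (1 mg/kg) in each week. The protocol text puts the animals at 6 months and the sample descriptions at about 7 months. The duration of treatment and the time from the last injection to tissue collection are not stated in the sources used here. Nothing in the labels says that the 5 libraries of a group came from separate animals, so every p-value measures only the spread between these libraries, which may be technical.

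Prednisone is converted in the body to prednisolone, which binds the glucocorticoid receptor. The bound receptor enters the nucleus, raises transcription of genes near its palindromic response element and holds down inflammatory genes that depend on NF-kappaB or AP-1. Glucocorticoids also act on the circadian clock of peripheral tissues, in which BMAL1 (Arntl) and its partners drive the Per, Cry and Nr1d genes that feed back on them. In muscle they are known both for slowing dystrophic decline in patients and for inducing the ubiquitin ligases of atrophy.

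Depth, recovered from the step size of the CPM values, was 2768681 to 11029352 reads per library, and 3 reads were worth 0.271 to 1.08 CPM. Within a group, the biological coefficient of variation was 3.55% in vehicle, 29.4% in weekly and 9.4% in daily, so the vehicle range that a prednisone library had to clear was narrow. A pair of libraries stood apart. The fourth weekly library (weekly 4), the shallowest, had 0.567% of its reads in the mitochondrial ribosomal RNA mt-Rnr2, against 6.22% to 9.41% in the other weekly libraries. The third daily library (daily 3) had 20.5% of its reads in Gm26924 and 7.79% in Lars2, and its TMM factor (edgeR's correction of library size, trimmed mean of ratios) was 0.652, so its other genes are low on the deposited scale. All 8 skeletal muscle markers were present, at a summed level of 246360 to 251394 CPM in vehicle, 201742 to 282677 CPM in weekly libraries and 144421 to 228799 CPM in daily. All 5 lymphocyte markers were absent from the table. In bulk tissue, fewer cells of a type and less RNA per cell cannot be told apart.

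On the deposited scale, limma called 478 genes higher (3.4% of those tested) and 225 lower (1.6%) in prednisone at an adjusted p under 0.05, weighting both regimens equally, and with TMM scaling it called 879 higher (6.25%) and 617 lower (4.39%). The median change of all tested genes was 0.05 on the log2(CPM + 0.5) scale, on which all changes below are given. All 10 prednisone libraries lay above vehicle for 1.21% of genes tested and below it for 1.1%. The counts of called and of separating genes in the lists below are to be read against these shares. Of the 170 genes above vehicle, 163 were called, and of the 154 below, 130 were called. These calls come from the libraries that chose the genes and are a description. The separating changes ran from 0.36 to 3.93 with a median of 1.15 above vehicle, and from -4.03 to -0.24 with a median of -0.72 below it. A gap of more than 1 log2 unit between the nearest prednisone and vehicle libraries was left by 12 genes above and 3 genes below vehicle. Of the 170 genes above, 14 were below 1 CPM in every vehicle library. They passed the filter on low values only through the prednisone libraries and so had to differ. Genes with some vehicle libraries below 1 CPM, such as Sphk1, Serpina3m and Bcat1, also needed prednisone libraries to pass. With the 5 vehicle libraries averaged into 1 sample, assumed to vary like the prednisone libraries, 6 genes rose (Card14, Socs3, Mt1, Mt2, Rrad and Nfil3) and 2 fell (Dbp and Per3). The separating set depended on scaling and on daily 3: TMM scaling gave 387 genes above (2.75%) and 348 below (2.48%), of which 148 and 147 were on the deposited lists, and leaving daily 3 out gave 687 above and 155 below.

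The widest gap belonged to Card14, a scaffold protein that activates NF-kappaB, annotated at chr11:119307768-119345375 of GRCm38. It read 2.92, 1.99, 2.98, 2.54 and 3.84 CPM in vehicle replicates 1 to 5, 38.2, 36.4, 71.6, 146 and 58.4 CPM in weekly and 39.9, 55.8, 23.1, 41.2 and 51.4 CPM in daily. Every prednisone library stood far above the vehicle libraries, and the change was 3.93 ± 0.25 (SE), adjusted p = 2.21e-09 (limma). Socs3, a feedback inhibitor of cytokine receptor signalling, read 7.43, 11.6, 10.3, 11.1 and 11.9 CPM in vehicle, 62.6, 66.05, 135, 156 and 103 CPM in weekly and 60.9, 72.1, 37.9, 56.3 and 63.7 CPM in daily. Its change was 2.80 ± 0.20 (SE), adjusted p = 4.48e-09. Rrad, a small GTPase that inhibits voltage-gated calcium channels, read 11.8 to 15.7 CPM in vehicle, 111 to 302 CPM in weekly libraries and 48.3 to 77.8 CPM in daily, so that the regimens did not overlap each other either. Sphk1, which makes sphingosine-1-phosphate, read 0.819 to 2.32 CPM in vehicle and 6.04 to 44.95 CPM under prednisone. Ppp1r3c, which targets protein phosphatase 1 to glycogen, read 156 to 172 CPM in vehicle and 329 to 561 CPM under prednisone, a change of 1.43 ± 0.14 (SE), adjusted p = 7.75e-07. Fam179a rose from 5.09 to 8.55 CPM to 15.2 to 53.6 CPM. Daily 3 was the lowest prednisone library for each of these 6 genes.

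**Figure D1:**
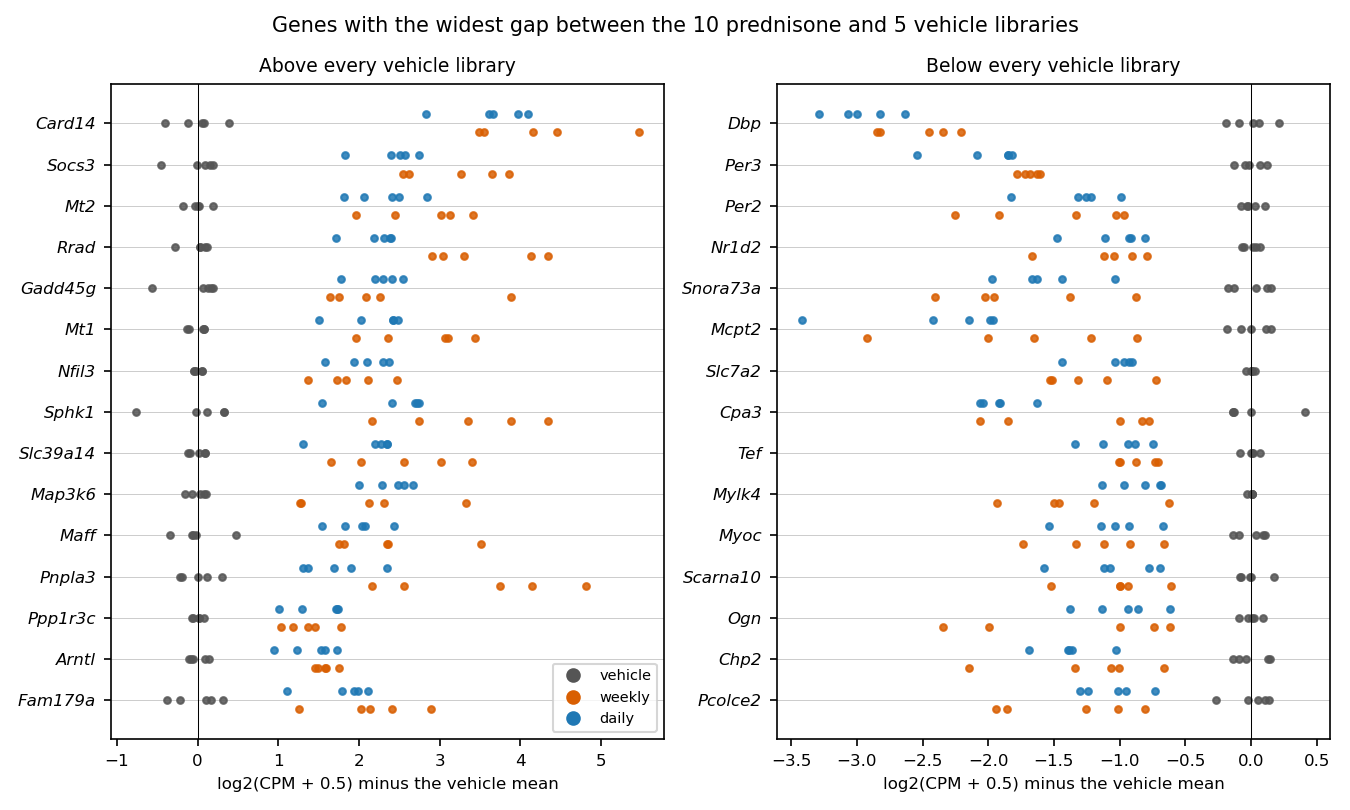
The 15 genes with the widest gap on each side, by library (each point 1 library, 5 per group); the x axis is log2(CPM + 0.5) minus the mean of the vehicle libraries. No prednisone point crosses the vehicle points of its gene, and Card14 above and Dbp below vehicle have the widest gaps.

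Genes of the circadian clock were on both sides of vehicle. Of 17 tested members of the core clock list, 3 rose (Arntl, Npas2 and Cry1) and 5 fell (Per2, Per3, Nr1d1, Nr1d2 and Rora), with a list median of -0.07. Of 12 output factors, 2 rose (Nfil3 and Klf10) and 2 fell (Dbp and Tef), with a median of 0.02. Dbp, an activator at D-box elements annotated at chr7:45705088-45710203, read 31.3, 28.2, 30.3, 34.8 and 26.2 CPM in vehicle, 5.07, 5.52, 3.83, 6.11 and 3.74 CPM in weekly and 3.32, 3.804, 2.63, 3.14 and 4.43 CPM in daily. It fell by 2.75 on the log2 scale (SE 0.15, adjusted p = 2.41e-10). Nfil3, which represses the same elements and lies at chr13:52967209-52981073, moved the other way, from 10.6, 10.7, 9.85, 10.1 and 9.83 CPM in vehicle to 34.8, 27.1, 45.8, 58.6 and 37.7 CPM in weekly and 54.98, 52.3, 31.4, 45.2 and 40.3 CPM in daily.

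Per3, a negative limb gene at chr4:151003652-151044665, read 64.2, 59.1, 60.3, 66.4 and 55.7 CPM in vehicle, 19.8, 18.2, 19.4, 18.7 and 17.4 CPM in weekly and 16.9, 16.6, 10.1, 16.5 and 13.99 CPM in daily, with every weekly library above every daily one. Its relative Per2 read 20.5 to 23.2 CPM in vehicle and 4.14 to 10.8 CPM under prednisone. Per1, which the receptor is also known to induce directly, overlapped: it read 44.5, 48.6 and 49.4 CPM (lowest, median, highest) in vehicle, 24.2, 37.95 and 75.9 CPM in weekly and 37.8, 61.9 and 68.5 CPM in daily (-0.03, adjusted p = 0.964). Nr1d1 and Nr1d2 encode the REV-ERB repressors of Arntl. Nr1d2 read 109 to 119 CPM in vehicle and 35.6 to 65.8 CPM under prednisone, and Nr1d1 read 49.7 to 59.4 CPM and 19.4 to 36.98 CPM. Rora, whose product competes with REV-ERB proteins, read 160.5 to 169 CPM in vehicle and 90.5 to 149.6 CPM under prednisone. Arntl itself read 15.1, 12.6, 14.5, 13.1 and 12.9 CPM in vehicle, 38.2, 41.7, 47.2, 42.1 and 39.3 CPM in weekly and 41.8, 46.2, 26.6, 40.2 and 32.7 CPM in daily, a change of 1.49 ± 0.13 (SE), adjusted p = 1.06e-07. Npas2, an alternative partner of BMAL1, read 2.65 to 3.04 CPM in vehicle and 3.96 to 15.1 CPM under prednisone. Tef, a relative of Dbp, read 188 to 209 CPM in vehicle and 78.8 to 122 CPM under prednisone. Cry1 (0.71, adjusted p = 0.0055) and Klf10 (0.59, adjusted p = 0.00568) rose, and in both the only library that overlapped vehicle was daily 3. The sources used here do not state the hour of tissue collection, and its part in these values was not tested.

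The window upstream of Nfil3 is shown because it holds the element that REV-ERB and ROR proteins share. It is the 250 bases before the start of the gene in RefSeq (GRCm38.p6, the C57BL/6J reference, not DBA/2J), chr13:52981040-52981289 on the reverse strand, 5′ to 3′ on the strand of the gene. Capitals mark the ROR element TAGGTCA, here on the opposite strand, 12 bases before the start.
Nfil3: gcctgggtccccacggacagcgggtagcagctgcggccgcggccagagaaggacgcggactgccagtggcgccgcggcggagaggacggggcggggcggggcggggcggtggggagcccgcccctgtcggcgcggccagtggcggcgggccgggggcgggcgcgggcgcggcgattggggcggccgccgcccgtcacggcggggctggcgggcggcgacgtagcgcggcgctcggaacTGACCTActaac
Searched on both strands in windows of 300 bases (250 before and 50 after the start), the ROR element was in 5.36% of the 112 genes above vehicle that have a window, Arntl and Nfil3 among them, in 1.89% of the 106 below and in 2.26% of the 10007 tested genes with one. The E-box CACGTG was in 14.3%, 7.55% and 11.6% in the same order, and the AP-1 element TGANTCA in 13.4%, 5.66% and 6.37%. A match is a description of the letters, not of binding.

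Known targets of the glucocorticoid receptor that changed were mostly higher. Of 30 tested members, 11 rose and 1 fell, with a median of 0.51, and 9 lay above vehicle in every library. Fkbp5, a co-chaperone of the receptor, read 36.5, 29.6, 27.4, 29.3 and 29.7 CPM in vehicle, 37.4, 47.2, 58.7, 191 and 73.1 CPM in weekly and 108, 109, 75.6, 109 and 106 CPM in daily (1.43 ± 0.24 (SE), adjusted p = 0.000658). Its daily libraries lay above 4 of the 5 weekly ones, and weekly 1 cleared the highest vehicle library by a small margin. Cebpd, a transcription factor, read 6.67 to 11.4 CPM in vehicle and 19.2 to 117 CPM under prednisone. Cdkn1a, the cell cycle inhibitor p21, read 19.5 to 21.3 CPM and 35.1 to 122 CPM. Zbtb16, a zinc finger transcription factor, read 77.03 to 84.7 CPM and 91.3 to 272 CPM, and Errfi1, an inhibitor of epidermal growth factor receptor signalling, read 24.8 to 26.2 CPM and 33.1 to 111 CPM. Glul, glutamine synthetase, rose by 0.83, adjusted p = 0.00106. Arrdc2 rose (1.51, adjusted p = 0.00124) but overlapped through the weekly libraries, which read 3.204, 6.15, 7.15, 23.7 and 6.45 CPM against 4.02, 3.86, 3.55, 5.199 and 3.62 CPM in vehicle and 21.3, 22.1, 15.02, 21.6 and 23.001 CPM in daily. The classical targets Tsc22d3, which encodes GILZ (0.56, adjusted p = 0.06), and Klf15 (0.45, adjusted p = 0.102) were not called on the deposited scale. With TMM scaling these became adjusted p = 0.0222 and 0.0306. The receptor gene Nr3c1 was not called (-0.36, adjusted p = 0.14), and with TMM scaling it was just past the threshold (adjusted p = 0.0498).

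The metallothioneins, small proteins that bind zinc and other metals, were among the widest gaps. Mt1, at chr8:94179082-94180327, read 25.2, 22.2, 21.8, 25.3 and 25.4 CPM in vehicle, 95.04, 125, 265, 209.7 and 205 CPM in weekly and 130.0, 137, 68.9, 130.4 and 98.7 CPM in daily (2.48 ± 0.20 (SE), adjusted p = 3.17e-08). Mt2, its neighbour at chr8:94172664-94173568, read 18.1, 17.6, 18.3, 20.6 and 15.8 CPM in vehicle, 71.8, 101, 196, 161 and 149 CPM in weekly and 98.3, 104, 64.7, 132 and 77.04 CPM in daily (2.56 ± 0.19 (SE), adjusted p = 1.19e-08). The lowest prednisone library of each was daily 3, still well above every vehicle library. Slc39a14, a zinc importer, read 19.7 to 22.9 CPM in vehicle and 53.7 to 231 CPM under prednisone, and Slc39a10, another importer, read 7.63 to 10.9 CPM and 11.5 to 37.6 CPM. Of 12 tested genes of metallothionein and zinc transport these 4 rose and none fell (median 0.29), and the exporter Slc30a1, not called on the deposited scale (-0.32, adjusted p = 0.21), fell with TMM scaling (adjusted p = 0.0143). Slc39a10 did not separate with TMM scaling. Reads shared between near-identical genes, such as the metallothionein, mast cell protease, Cd209 and globin families, make single members uncertain.

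The windows upstream of Mt1 and Mt2 are shown because metallothionein genes are known to respond to metals through short elements. Capitals mark the metal response element in its forms TGCACNC and TGCGCNC on either strand. Only the 250 bases before the start are printed. The searched window of 300 bases also holds a TGCGCNC match for Mt1, which is not within the printed bases.
Mt1 (chr8:94178839-94179088 on the forward strand): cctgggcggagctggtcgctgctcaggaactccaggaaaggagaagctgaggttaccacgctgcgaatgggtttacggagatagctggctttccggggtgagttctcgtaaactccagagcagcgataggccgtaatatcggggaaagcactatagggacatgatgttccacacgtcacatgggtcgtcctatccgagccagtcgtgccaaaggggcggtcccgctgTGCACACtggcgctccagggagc
Mt2 (chr8:94172368-94172617 on the forward strand): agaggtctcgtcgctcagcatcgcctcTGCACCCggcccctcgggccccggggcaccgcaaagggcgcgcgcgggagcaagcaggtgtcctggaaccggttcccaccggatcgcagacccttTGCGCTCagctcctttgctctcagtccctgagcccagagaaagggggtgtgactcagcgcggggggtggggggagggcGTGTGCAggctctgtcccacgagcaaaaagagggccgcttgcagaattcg
The TGCACNC form was in 25.9% of genes above vehicle, 15.1% of those below and 15.4% of tested genes with a window, and the TGCGCNC form in 33.9%, 27.4% and 30.0%. Map3k6, a stress-activated kinase, read 6.09, 6.204, 5.84, 5.42 and 5.09 CPM in vehicle, 14.5, 14.5, 26.7, 61.9 and 30.4 CPM in weekly and 39.2, 36.000, 24.3, 29.9 and 34.2 CPM in daily, and no prednisone library reached the vehicle range.

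Immediate early genes respond quickly to signals. Of 32 tested, 15 rose and none fell, with a median of 0.74, and 12 separated. Gadd45g, a growth arrest and stress gene, read 8.399, 4.799, 8.24, 8.07 and 7.69 CPM in vehicle, 25.8, 23.9, 37.04, 114 and 32.8 CPM in weekly and 37.9, 40.9, 26.2, 45.2 and 35.5 CPM in daily. Maff, a small Maf transcription factor, read 1.405 to 2.86 CPM in vehicle and 6.51 to 26.97 CPM under prednisone. Zfp36, which destabilises messenger RNAs of inflammatory genes, read 11.9 to 13.2 CPM and 20.99 to 40.9 CPM. Fos, a subunit of AP-1, read 22.1, 24.1 and 24.8 CPM (lowest, median, highest) in vehicle, 31.8, 47.1 and 86.7 CPM in weekly and 30.2, 70.6 and 78.7 CPM in daily. Junb (1.43, adjusted p = 0.00019), Fosl2 (1.13, adjusted p = 5.2e-05), Atf3 (1.82, adjusted p = 5.14e-05), Myc (1.48, adjusted p = 0.000174) and Ier5 (1.08, adjusted p = 0.0143) also lay above every vehicle library. Mafk rose (0.90, adjusted p = 0.00156) with an overlap on the deposited scale and none with TMM scaling. In the growth arrest list, 4 of 19 rose, which were Cdkn1a, Gadd45g, Cebpd and Btg2 (1.55, adjusted p = 1.48e-05), and Cebpb was not called (0.90, adjusted p = 0.053), though it was with TMM scaling (adjusted p = 0.0295).

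Genes of cytokine receptors, STAT3 signalling and the acute phase form a list drawn up after values were seen, so its count is a description. Of 24 tested, 12 rose, 8 lay above vehicle in every library and none fell on the deposited scale, while with TMM scaling 13 rose and 1 fell. Il4ra, a chain of the interleukin-4 receptor, read 24.5, 25.9, 28.3, 28.98 and 32.8 CPM in vehicle, 43.9, 64.7, 109, 192 and 110.3 CPM in weekly and 83.4, 78.7, 47.2, 82.2 and 96.9 CPM in daily (1.56 ± 0.23 (SE), adjusted p = 0.000186). Osmr, the oncostatin M receptor, read 28.7 to 30.5 CPM in vehicle and 39.03 to 94.8 CPM under prednisone. Bcl3, a nuclear regulator of NF-kappaB, read 1.95 to 4.63 CPM and 5.58 to 16.9 CPM, and Serpina3m, a serine protease inhibitor, read 0.113 to 1.34 CPM and 2.35 to 12.2 CPM. Serpina3m needed prednisone libraries to pass the filter on low values, which favoured a rise. Stat3 rose with overlap (0.68, adjusted p = 0.00991), as did Serpina3n (0.67, adjusted p = 0.0291), Pim1 (0.71, adjusted p = 0.0329) and Cish (0.59, adjusted p = 0.0255), and Lbp, which binds lipopolysaccharide, separated on the deposited scale only (0.75, adjusted p = 0.0062). Of 34 tested genes of NF-kappaB and inflammation, 6 rose and 1 fell (Ccl8), with a median of 0.12. Those that rose were Card14, Map3k6, the kinase Map3k8 (1.27, adjusted p = 0.00011), the receptor Il1r1 (0.72, adjusted p = 0.00454), and the IkappaB family members Nfkbiz (1.07, adjusted p = 0.000825) and Nfkbia. Among 31 interferon response genes only Stat2 rose (0.72, adjusted p = 0.04), against 3.4% of all tested genes. Anxa1, a mediator of glucocorticoid action in inflammation, was not called (0.47, adjusted p = 0.367), nor was Lcn2 (0.49, adjusted p = 0.303).

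Several mast cell genes lay below vehicle under both regimens. On a list drawn up after values were seen, 11 of 20 genes were in the table and 11 were tested, and 6 of these fell, the same 6 that separated on either scale, while none rose. Mcpt2, a mast cell protease, read 6.33, 5.502, 6.87, 7.08 and 5.99 CPM in vehicle, 0.4005, 2.44, 1.21, 3.24 and 1.68 CPM in weekly and 1.25, 1.22, 0.774, 1.05 and 0.139 CPM in daily (-2.06 ± 0.28 (SE), adjusted p = 7.74e-05). Cpa3, the mast cell carboxypeptidase, read 8.28, 5.502, 5.495, 5.53 and 6.104 CPM in vehicle, 1.33, 2.805, 3.22, 1.08 and 3.35 CPM in weekly and 1.25, 1.63, 1.08, 1.26 and 1.11 CPM in daily (-1.61 ± 0.22 (SE), adjusted p = 6.39e-05). Cma1, a chymase, read 5.74 to 9.74 CPM in vehicle and 0.929 to 5.43 CPM under prednisone. The tryptase Tpsb2 read 3.04 to 3.84 CPM and 0 to 2.52 CPM, the protease Mcpt4 2.65 to 4.26 CPM and 0 to 2.21 CPM, and the receptor Mrgprb1 2.11 to 3.55 CPM and 0.133 to 1.45 CPM. These levels lie near the value of 3 reads in the shallow libraries, so single libraries carry little weight. The summed level of the list was 48.1 to 53.1 CPM in vehicle, 19.4 to 41.3 CPM in weekly libraries and 16.1 to 26.7 CPM in daily, so both regimens lay below vehicle and overlapped each other.

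Genes known from tissue-resident macrophages, on another list drawn up after values were seen, fell in 11 of 17 cases and rose in none, and 5 separated. The summed level of the list did not separate, at 564.0 to 598.4 CPM in vehicle, 278.7 to 812.7 CPM in weekly libraries and 289.7 to 487.6 CPM in daily. Cd209f, a C-type lectin, read 8.64, 8.78, 7.67, 9.29 and 9.27 CPM in vehicle, 2.403, 3.44, 3.72, 6.11 and 5.16 CPM in weekly and 2.22, 2.45, 2.01, 2.51 and 1.801 CPM in daily (-1.41 ± 0.18 (SE), adjusted p = 3.66e-05). Lyve1, a hyaluronan receptor also made by lymphatic endothelium, read 9.95 to 12.6 CPM in vehicle and 1.94 to 8.99 CPM under prednisone. Cd209b read 4.12 to 5.88 CPM and 0.3596 to 3.05 CPM, Cd209d 2.7998 to 4.69 CPM and 0 to 2.51 CPM, and the phospholipase Pla2g2d 2.31 to 3.63 CPM and 0.209 to 2.01 CPM. F13a1, the coagulation factor XIII subunit, fell (-1.14, adjusted p = 0.00323) but overlapped in weekly 4 (79.8 CPM). Folr2 (-1.16, adjusted p = 0.0149), Retnla (-0.93, adjusted p = 0.0268), Cd209a (-0.96, adjusted p = 0.0224) and Cd209g (-1.30, adjusted p = 0.011) fell with overlap. The 11 also include Igf1, which fell with overlap and is counted again on the insulin, IGF and mTOR list below. On the general macrophage list, of 28 tested, 1 rose (Gpnmb, 1.04, adjusted p = 0.023) and 0 fell, and the summed level of 5 defining markers was 149.9 to 158.3 CPM in vehicle, 66.2 to 573.9 CPM in weekly libraries and 75.0 to 155.3 CPM in daily. Of 9 lymphatic endothelial genes, also listed afterwards, 4 fell, among them Mmrn1 (-1.23, adjusted p = 0.00171), and 1 rose (Pdpn).

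**Figure D2:**
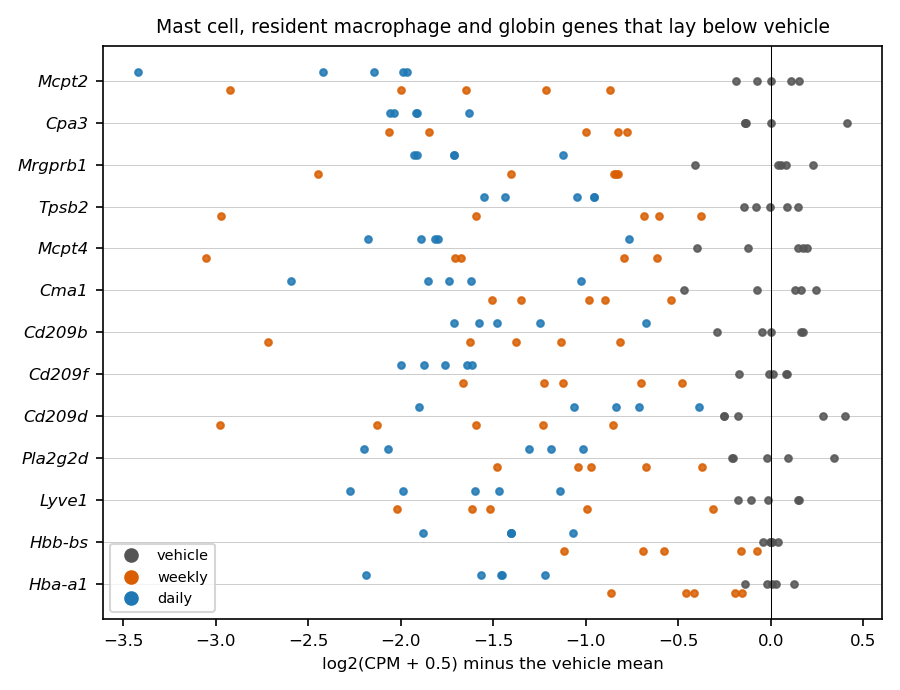
Mast cell, resident macrophage and globin genes below every vehicle library, by library (each point 1 library, 5 per group); the x axis is log2(CPM + 0.5) minus the mean of the vehicle libraries. The daily points of Hba-a1 lie below all its weekly points, and the daily and weekly points of the other genes overlap.

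Of 7 red cell genes listed, 3 were tested, and 2 of these, both globins, were also low. Hba-a1, an alpha globin, read 28.5, 34.3, 30.9, 31.5 and 31.99 CPM in vehicle, 22.7, 17.01, 27.4, 23.4 and 28.1 CPM in weekly and 13.2, 11.1, 6.51, 11.1 and 10.3 CPM in daily (-0.998 ± 0.15 (SE), adjusted p = 0.000206). Hbb-bs, a beta globin, read 40.7, 41.8, 42.01, 41.9 and 42.95 CPM in vehicle, 27.9, 19.000, 25.8, 37.4 and 39.7 CPM in weekly and 19.7, 15.5, 10.997, 15.5 and 15.5 CPM in daily (-0.98 ± 0.16 (SE), adjusted p = 0.000381). The third tested red cell marker, Alas2, the erythroid enzyme of haem synthesis, was not called (0.10, adjusted p = 0.821). How much blood each sample held was not tested.

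Of 22 atrophy genes, 2 rose and 2 fell, with a median of -0.05. The ubiquitin ligases best known from muscle atrophy moved in opposite directions. Trim63 (MuRF1) read 115, 119, 122, 124 and 119 CPM in vehicle, 160.2, 162, 163, 364 and 141 CPM in weekly and 222, 204, 139.7, 217 and 174 CPM in daily (0.64 ± 0.17 (SE), adjusted p = 0.0286). Fbxo32 (atrogin-1) read 572, 577, 602, 627 and 554 CPM in vehicle, 320.5, 417, 323, 235 and 279.5 CPM in weekly and 327, 344, 240.4, 337 and 262 CPM in daily (-0.94 ± 0.13 (SE), adjusted p = 8.05e-05). Foxo1, which drives both in fasting, rose (0.60, adjusted p = 0.00878), and Ky, a muscle peptidase gene, fell (-0.82, adjusted p = 0.00171). Trim63 and Foxo1 did not separate with TMM scaling. Cblb, another ligase (0.45, adjusted p = 0.0597), Foxo3 (0.45, adjusted p = 0.115) and myostatin, Mstn (-0.43, adjusted p = 0.26), were not called. With TMM scaling Cblb (adjusted p = 0.00276) and Foxo3 (adjusted p = 0.0497) were called, and 4 genes of the list rose and 4 fell. Of 22 autophagy genes, Map1lc3a fell (-0.46, adjusted p = 0.0242), and Ctsl was not called (0.55, adjusted p = 0.0685), though it was with TMM scaling (adjusted p = 0.016).

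In the insulin, IGF and mTOR list, 1 of 29 rose and 2 fell, against 3.4% and 1.6% of all tested genes. Ddit4 (REDD1), an inhibitor of mTORC1, read 4.26, 3.86, 4.35, 3.98 and 3.05 CPM in vehicle, 9.61, 7.42, 8.66, 87.03 and 11.5 CPM in weekly and 46.9, 43.5, 34.2, 42.9 and 40.2 CPM in daily (2.52 ± 0.36 (SE), adjusted p = 0.000118). Weekly 4 lay far above the other weekly libraries and above all daily ones. Irs1, an adaptor of the insulin receptor, read 157 to 185 CPM in vehicle and 51.4 to 137 CPM under prednisone (-0.84, adjusted p = 0.00465). Igf1, the growth factor, fell with overlap, reading 48.3, 42.02, 44.1, 42.3 and 44.5 CPM in vehicle, 18.3, 40.4, 42.8, 37.4 and 41.7 CPM in weekly and 23.3, 22.3, 13.3, 20.7 and 26.7 CPM in daily. Of 33 glycolysis and glycogen genes, 6 rose and 2 fell. Pdk4, which inhibits pyruvate dehydrogenase and is commonly induced by glucocorticoids, lay below vehicle, reading 1262 to 1329.6 CPM in vehicle and 525 to 1094 CPM under prednisone (-0.56, adjusted p = 0.0418). Pdp1, the phosphatase that opposes it, fell too (-0.56, adjusted p = 0.0138), and Pfkp rose with overlap (1.08, adjusted p = 0.00278). Slc7a2, an importer of cationic amino acids, read 95.2, 96.7, 94.4, 95.01 and 92.01 CPM in vehicle, 37.6, 57.2, 44.1, 32.4 and 32.8 CPM in weekly and 48.2, 50.3, 34.5, 49.6 and 46.002 CPM in daily (-1.15 ± 0.13 (SE), adjusted p = 9.88e-06), while 6 of 23 genes of amino acid transport and glutamine rose, Slc38a2 (0.58, adjusted p = 0.0115) among them. Of 25 chaperone genes, 4 rose, among them Hsp90aa1 (0.49, adjusted p = 0.0171), and Hspb8 fell (-0.50, adjusted p = 0.0189).

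Several secreted and matrix genes separated. Ogn, a small leucine-rich proteoglycan, read 49.8 to 56.5 CPM in vehicle and 10.1 to 34.5 CPM under prednisone, and its relative Fmod read 109 to 119 CPM and 35.1 to 83.2 CPM. Myoc, a secreted glycoprotein, read 36.7 to 43.4 CPM and 11.7 to 25.4 CPM, and Pcolce2, an enhancer of procollagen processing, 5.36 to 7.23 CPM and 1.33 to 3.74 CPM. Dcn, decorin, fell with overlap (-0.59, adjusted p = 0.028). Spp1, osteopontin, read 14.4, 11.1, 13.3, 13.5 and 12.2 CPM in vehicle, 15.4, 46.5, 34.3, 896 and 57.3 CPM in weekly and 62.5, 75.7, 86.1, 188 and 199 CPM in daily (2.68 ± 0.56 (SE), adjusted p = 0.00497). Col1a1 and Col5a1, fibrillar collagens, lay above vehicle in every library but were not called (1.29, adjusted p = 0.0583 and 0.84, adjusted p = 0.22), with weekly 4 at 7723 and 1515 CPM against 395 to 439 and 108 to 127 CPM in vehicle. Col4a2 rose with overlap (0.86, adjusted p = 0.0135). Of 37 matrix genes 5 rose and 2 fell, with a median of 0.42. The 3 fibroblast markers summed to 646.2 to 718.7 CPM in vehicle, 755.7 to 7944 CPM in weekly libraries and 787.8 to 1316 CPM in daily. Col1a1 gave 395 to 439 CPM of this sum in vehicle and 7723 CPM in weekly 4, while Dcn, another of the 3, fell. Of 13 tested genes on the longer fibroblast list, 0 rose and 1 fell (3 with TMM scaling). The median of that list was -0.11, with 5 changes positive and 8 negative. The part of fibroblasts in these values was not tested. Of 11 bone and calcification genes, 4 rose, among them Alpl, tissue-nonspecific alkaline phosphatase, from 2.54 to 3.84 CPM in vehicle to 6.97 to 24.3 CPM, and Mmp9 with overlap (1.26, adjusted p = 0.0256). Of 24 TGF-beta genes 4 rose, among them Ctgf (0.64, adjusted p = 0.0233), which separated, and Smad3 (0.60, adjusted p = 0.0173), which overlapped. Sdc4, a syndecan of satellite cells, rose (1.27, adjusted p = 8.3e-05), and embryonic myosin, Myh3, was not called (1.14, adjusted p = 0.0697). Chp2, a calcineurin-like calcium binding protein, read 5.84 to 7.23 CPM and 1.08 to 3.93 CPM, and Mylk4, a kinase of the myosin light chain kinase family, 572 to 588 CPM and 152 to 378 CPM.

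Small non-coding RNAs and ribosomal protein genes were grouped after values were seen, and more of them fell than rose. Of 47 small RNA genes by annotation, 11 fell and 2 rose, and 8 lay below vehicle in every library. The lowest fitted change of all separating genes, -4.03, belonged to the predicted small RNA Gm24119, which read 24.8, 27.9, 26.3, 24.3 and 30.97 CPM in vehicle, 0.267, 0.543, 0.705, 6.11 and 1.03 CPM in weekly and 1.38, 1.49, 1.08, 2.302 and 0.554 CPM in daily. Snora73a, a small nucleolar RNA, read 25.4 to 32.1 CPM in vehicle and 5.03 to 15.5 CPM under prednisone, Scarna10, a Cajal body RNA, 42.5 to 50.9 CPM and 14.9 to 29.4 CPM, and Rn7sk, which inhibits the elongation factor P-TEFb, 4578 to 5017 CPM and 2318 to 4355 CPM. Of 76 cytosolic ribosomal protein genes, 25 fell and none rose, and 11 separated, and with TMM scaling 57 fell and 34 separated. Rpl39 read 50.1 to 56.8 CPM in vehicle and 10.1 to 42.3 CPM under prednisone. Rps25 (-0.69, adjusted p = 0.00878), Rps18 (-0.75, adjusted p = 0.00104) and Rps27 (-0.70, adjusted p = 0.0246) fell as well. Reads of these genes can be shared with processed pseudogenes. The sources used here do not state RNA quality, and its part was not tested.

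In the lists of fat metabolism and fat cells few or no genes separated and many differed between the regimens. Of 25 lipogenesis genes, 7 rose in the pooled comparison but only Pnpla3 and Scd2 separated, and 20 were lower in daily than in weekly (15 with TMM scaling), against 8.24% of all tested genes (2.64% with TMM scaling). Pnpla3, a lipid droplet protein, read 5.5995, 5.15, 4.35, 4.42 and 6.44 CPM in vehicle, 75.2, 32.7, 99.6, 24.8 and 159 CPM in weekly and 28.1, 17.7, 13.5, 14.02 and 20.6 CPM in daily. Scd2, a desaturase, read 48.9 to 56.6 CPM in vehicle, 94.6 to 210.4 CPM in weekly libraries and 63.97 to 114 CPM in daily. Fasn, fatty acid synthase, was called in the pooled comparison (1.47, adjusted p = 0.0104) with 888 to 6169 CPM in weekly, above all vehicle libraries (208 to 241 CPM), and 92.5 to 301 CPM in daily, on both sides of them. Acly (1.77, adjusted p = 0.00533), Tkt (1.38, adjusted p = 0.013) and Ucp1 (2.83, adjusted p = 0.0135) were called as well, with overlap, and Ucp1, below 1 CPM in every vehicle library, passed the filter on low values only through prednisone libraries and so had to differ. None of 24 adipocyte genes was called on the deposited scale and 19 were lower in daily than weekly (17 with TMM scaling), with Adipoq at -0.05, adjusted p = 0.947 and Fabp5 at 0.84, adjusted p = 0.0547. With TMM scaling 3 of them rose, Fabp5 (adjusted p = 0.0396) among them, and 1 fell. The 6 adipocyte markers summed to 416.2 to 454.05 CPM in vehicle, 460.7 to 2206 CPM in weekly libraries and 130.0 to 295.3 CPM in daily, so weekly and daily lay on opposite sides of vehicle.

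Contractile and mitochondrial genes were mostly not called. None of 12 skeletal muscle markers passed the test (smallest p: Mylpf, -0.38, adjusted p = 0.21), nor did any of 17 fast fibre genes (Tnnc2, -0.35, adjusted p = 0.145), of 22 genes of the dystrophin complex (Large, 0.31, adjusted p = 0.202), of 44 nuclear respiratory chain genes (Ndufb3, 0.45, adjusted p = 0.194), of 13 mitochondrially encoded genes (mt-Co2, 0.48, adjusted p = 0.341), of 27 proteasome genes (Psmb1, -0.30, adjusted p = 0.226) or of 19 cell cycle genes (Ccnd2, -0.38, adjusted p = 0.142). On 2 of these lists the gene shown ran against most members. Of the 13 mitochondrially encoded genes 12 had negative changes (median -0.39) and only mt-Co2 a positive one. It read 1.08 to 6.65 CPM under prednisone. The 13 summed to 26168 to 27238 CPM in vehicle, 1699 to 35594 CPM in weekly libraries and 21556 to 37392 CPM in daily. Of the 19 cell cycle genes 15 had positive and 4 negative changes (median 0.16). With TMM scaling 1 fast fibre gene, 4 proteasome genes and 1 cell cycle gene fell and 1 gene of the dystrophin complex rose. Dmd, the mutated gene, read 418 to 553 CPM in vehicle, 222 to 466 CPM in weekly libraries and 333 to 644 CPM in daily, and transcript counts of a point mutant do not test the label. Of 17 slow fibre genes Myl2, the slow regulatory light chain, fell and read 123, 122, 114, 112 and 128 CPM in vehicle, 109.7, 11.9, 79.8, 40.996 and 71.3 CPM in weekly and 30.3, 42.7, 13.3, 32.9 and 54.5 CPM in daily, and Myl3 was not called (-1.92, adjusted p = 0.06), though it was with TMM scaling (adjusted p = 0.0493). Genes called on other lists included Cpt1a (-0.93, adjusted p = 0.0156) of fatty acid oxidation, Bcat1 (1.69, adjusted p = 0.000956) of branched-chain amino acid breakdown, Anxa2 (0.65, adjusted p = 0.0296) of membrane repair, Nos3 (0.72, adjusted p = 0.00742) of endothelium, Prx (0.55, adjusted p = 0.0442) of Schwann cells, and Lmod1 (-0.60, adjusted p = 0.0306) and Rgs5 (-0.59, adjusted p = 0.00778) of smooth muscle and pericytes. Bcat1 read 0.111 to 1.10 CPM in vehicle and 0.774 to 6.47 CPM under prednisone. It needed prednisone libraries to pass the filter on low values, which favoured a rise. Anxa6 (0.24, adjusted p = 0.295), Bcat2 (0.14, adjusted p = 0.604) and Foxp3 (0.06, adjusted p = 0.937) were not called.

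The daily and weekly libraries were compared without vehicle to see where the regimens differed among the separating genes. Over all tested genes 1227 (8.73%) were called: 68 were higher (0.484%) and 1159 lower (8.24%) in daily on the deposited scale, against 292 (2.08%) and 371 (2.64%) with TMM scaling, so the split by direction rests on scaling. Of the 170 genes above vehicle, 18 were called, 5 higher and 13 lower in daily, and of the 154 below vehicle 7 were called, 1 higher and 6 lower. With TMM scaling 19 genes above vehicle were higher and 4 lower in daily, and of the genes below vehicle 3 were higher and 4 lower, so the direction that prevails above vehicle turns with the scaling. On both scales 14 were called. Above vehicle these were Rrad, Pnpla3, Sh2d5 and Fgl2, lower in daily, and Ddit4, Greb1, C7, Etos1 and RP24-308I2.1, higher in daily. Below vehicle they were Hba-a1, Hbb-bs, Clec14a and Smyd2, lower in daily, and U6, higher in daily.

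Rrad differed between regimens by -1.35 (95% interval -1.81 to -0.88, adjusted p = 0.000935) and Pnpla3 by -1.77 (95% interval -2.49 to -1.04, adjusted p = 0.00382). Fgl2, a fibrinogen-like protein, read 47.6, 51.3, 53.8, 47.7 and 51.5 CPM in vehicle, 86.5, 137, 248, 320.1 and 187 CPM in weekly and 86.8, 88.3, 62.9, 89.6 and 80.9 CPM in daily, a difference of -1.13 (95% interval -1.61 to -0.64, adjusted p = 0.00525). Sh2d5, which passed the filter only through prednisone libraries, read 0.332 to 0.916 CPM in vehicle, 2.002 to 7.19 CPM in weekly libraries and 1.24 to 2.49 CPM in daily. Ddit4 was higher in daily by 1.48 (95% interval 0.62 to 2.34, adjusted p = 0.0317), in spite of weekly 4. Greb1, an oestrogen-responsive gene, read 4.02, 4.45, 4.12, 3.65 and 4.52 CPM in vehicle, 5.47, 5.25, 9.06, 7.91 and 7.48 CPM in weekly and 24.2, 23.8, 14.3, 11.1 and 17.9 CPM in daily, a difference of 1.28 (95% interval 0.85 to 1.72, adjusted p = 0.000761), and these 3 groups did not overlap. C7, a complement component, differed by 0.74 (95% interval 0.27 to 1.20, adjusted p = 0.0441). Hba-a1 differed by -1.16 (95% interval -1.52 to -0.80, adjusted p = 0.000427) and Hbb-bs by -0.91 (95% interval -1.28 to -0.54, adjusted p = 0.00383), with no overlap between the regimens for Hba-a1 and an overlap of daily 1 with weekly 2 for Hbb-bs. Clec14a, an endothelial lectin, read 9.01 to 10.2 CPM in vehicle, 5.88 to 8.77 CPM in weekly libraries and 2.63 to 5.57 CPM in daily. Smyd2, a lysine methyltransferase of muscle, read 44.1 to 51.97 CPM, 34.8 to 42.8 CPM and 18.1 to 29.6 CPM in the same order. Greb1, C7, Sh2d5, Fgl2, Smyd2 and Clec14a were named after their values were seen. For the genes of the widest gaps other than Rrad, Pnpla3, Socs3 and Mylk4 the regimens were not called different on either scale, with intervals such as -0.59 (95% interval -1.20 to 0.02, adjusted p = 0.19) for Card14, 0.16 (95% interval -0.22 to 0.53, adjusted p = 0.6) for Nfil3, -0.43 (95% interval -0.80 to -0.06, adjusted p = 0.12) for Dbp and -0.35 (95% interval -0.65 to -0.05, adjusted p = 0.118) for Per3. Socs3 was lower in daily on the deposited scale, by -0.78 (95% interval -1.25 to -0.31, adjusted p = 0.0365), and not with TMM scaling (adjusted p = 0.133). Mylk4 was called higher in daily with TMM scaling (0.75, adjusted p = 0.0281) and not on the deposited scale (0.49 (95% interval 0.12 to 0.85, adjusted p = 0.0793)).

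**Figure D3:**
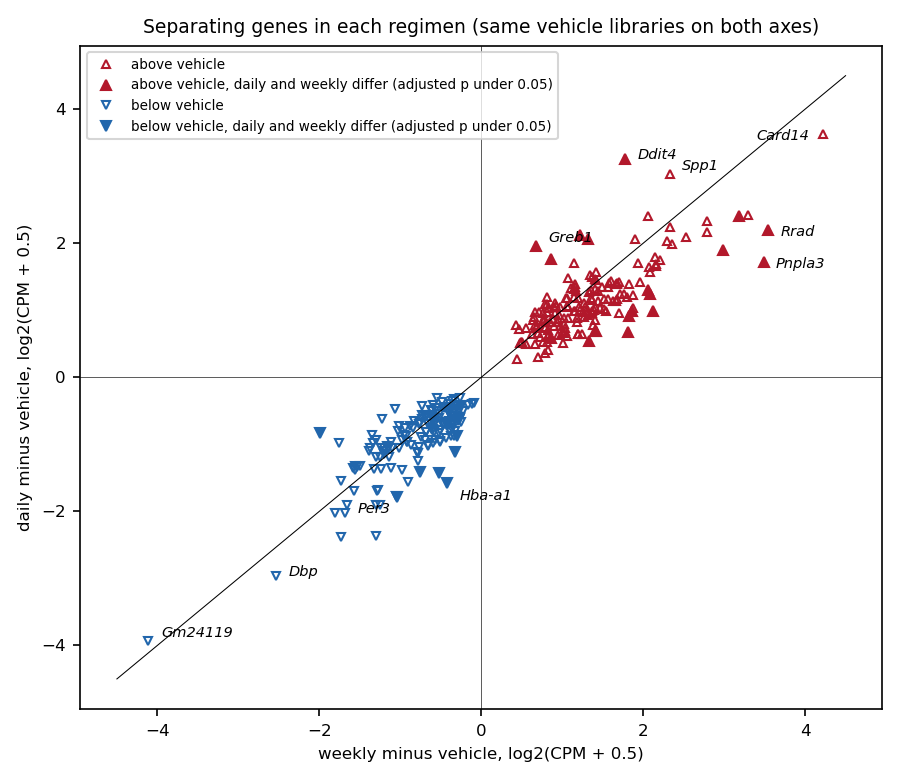
Change against vehicle in weekly (x axis) and daily (y axis) for the 324 separating genes, on log2(CPM + 0.5); filled symbols are the 25 genes with an adjusted p under 0.05 between daily and weekly, and the line marks equal change. Both axes share the vehicle libraries, so position along the line is no evidence of agreement; Rrad and Pnpla3 lie below the line and Ddit4 and Greb1 above it.

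Which genes separated was set by the prednisone library nearest to vehicle. Among the 170 genes above vehicle this was daily 3 for 91 genes, weekly 2 for 28 and weekly 1 for 27, and the farthest library was weekly 4 for 97. Among the 154 genes below vehicle the nearest library was weekly 2 for 47, and the farthest was daily 3 for 76. With TMM scaling the nearest library above vehicle was weekly 2 for 108 genes, weekly 1 for 75 and daily 3 for 44. The genes closest to the limit differed by less than 1 read's worth: Ctgf was inside, with its nearest prednisone and vehicle libraries at 29.41 and 29.39 CPM, and Sh3bp2 was outside, at 11.93 and 11.94 CPM. Below vehicle Cnbp was inside, at 269.98 and 270.00 CPM, and Kcnn3 was outside, at 37.46 and 37.44 CPM. Leaving out both weekly 4 and daily 3 gave 807 genes above and 257 below, and 534 and 520 with TMM scaling.

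**Figure D4:**
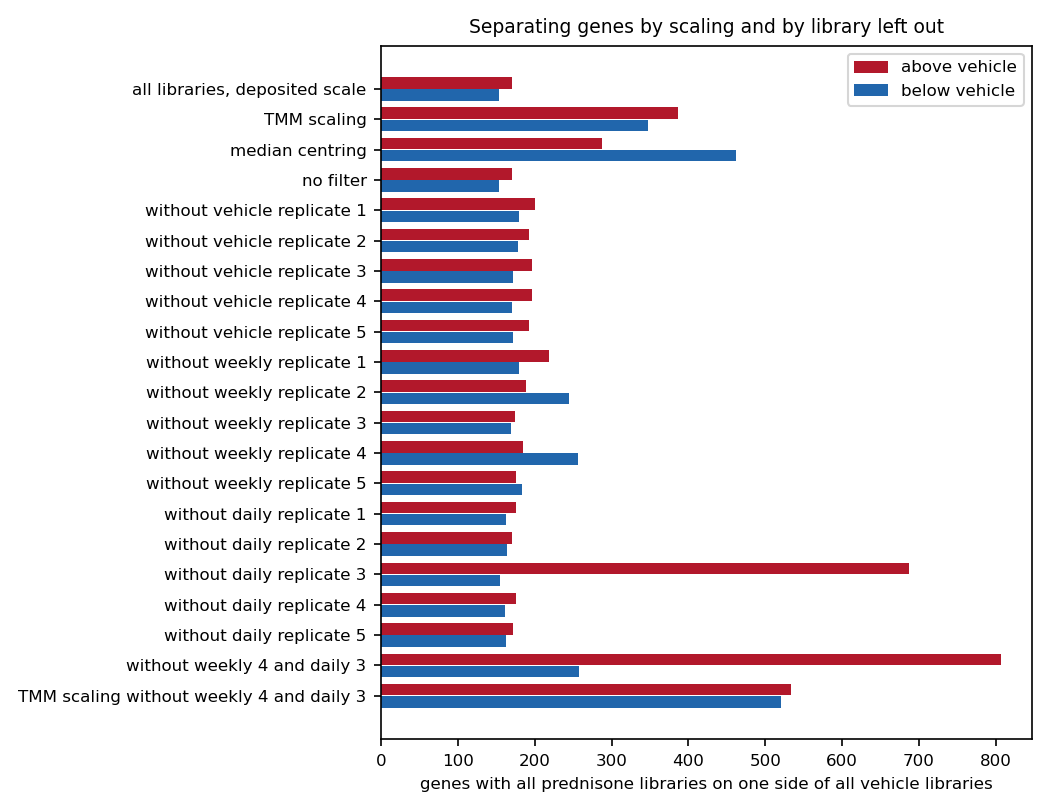
Number of genes with all prednisone libraries above (red) or below (blue) all vehicle libraries, under each scaling and with each library left out (bars start at 0). The count above vehicle rises from 170 to 687 when daily 3 is left out, and stays between 170 and 219 when any other single library is.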

How the data were processed

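Total RNA from about 30 mg of quadriceps was made into stranded total RNA libraries and sequenced as 150 bp pairs, per the labels' protocols. Per the submitters' processing notes, TopHat2 2.1.0, HTSeq and edgeR were used with mm10 (GRCm38). The sources used here do not state whether counting used strand, so overlapping and antisense genes cannot be told apart. The authors deposited 1 table of 15 libraries. Its unit is called RPKM in the labels, but the deposited values are CPM: all 222090 of 222090 are whole multiples of 1 read's worth within 0.01 reads, at the same step for every gene. Of 14806 features, 534 without a gene name (0.276% to 0.447% of reads) were left out of tests, and 9 columns were empty.

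From these CPM, log2(CPM + 0.5) was fitted with limma 3.58.1 (R 4.3.3, mean-variance trend) on all 15 libraries in 3 groups. The contrasts were the mean of weekly and daily minus vehicle, and daily minus weekly, with Benjamini-Hochberg adjustment over 14059 genes with at least 1 CPM in 5 libraries. No test was made of lists. The members, lists and rules were chosen with earlier results of these data known. Named genes were the 15 widest gaps each way with at least 2 CPM in the higher arm and no predicted name, up to 4 separating members and the overlapping member with the smallest p of each of 41 lists, genes of prior interest, and the genes at the limit, 119 in all, of which 2 are not reported here; all other genes, and the members of lists made later, were named after their values were seen. Alternatives were other pseudocounts (0.1, 2), no filter, TMM scaling, median centring, 2 groups, a replicate block, vehicle averaged, each library left out, and edgeR 4.0.16 and DESeq2 1.42.0 on the recovered counts. TMM scaling without weekly 4 and daily 3, and TMM scaling with vehicle averaged, were added after the data were seen. The fit was also run on simulated counts with known changes. These had less spread in weekly than was measured and no library with a composition like weekly 4 or daily 3. They therefore do not test how the counts depend on those libraries. Vehicle libraries differed by chi-square per degree of freedom of 1.5 to 2.01, above sampling noise, and each counted as a sample. Same-numbered libraries deviated together little (r from -0.03 to 0.15, 1 of 15 pairs over 0.1). The vehicle libraries varied little (coefficient of variation 3.55%), so pairs with vehicle could hardly show pairing. Whether the numbers pair the libraries was therefore not settled. Positions are from GENCODE M21 and sequences from RefSeq.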

Additional observations from a re-analysis of the deposited data

Results flagged for a closer look

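In some genes 1 library lay far from the others of its group, by Dixon's criterion on the CPM values. Chance gives about 1 in 20 groups, and the number of groups screened is not given here. The CPM values were not rescaled for this. The TMM factor of daily 3 was 0.652, so most of its genes are low on this scale. In vehicle 1 these were, with the CPM of that library, Rrad (11.8), Cpa3 (8.28), Hspb8 (327), Ccnd2 (24.95) and Fkbp5 (36.5). In weekly 4 these were, with the CPM of that library, Gadd45g (114), Cry1 (9.71), Trim63 (364), Ddit4 (87.03), Irs1 (51.4), mt-Co2 (1.08), Myh3 (324), Col1a1 (7723), Col5a1 (1515), Dmd (222), Foxo3 (139), Nr3c1 (91.7), Rps27 (6.83) and Nr1d1 (25.5). In daily 3 these were, with the CPM of that library, Sphk1 (6.04), Slc39a14 (53.7), Slc7a2 (34.5), Cdkn1a (37.2), Arrdc2 (15.02), Cblb (42.1), Map1lc3a (30.98), Ctsl (42.8), Zfp36 (21.2), Hsp90aa1 (40.3), Btg2 (34.2), Cebpb (9.603), Pfkp (13.3), Sdc4 (50.96), Large (39.7), Col4a2 (167), Map3k8 (8.83), Nfkbiz (9.45), Stat2 (11.8), Fkbp5 (75.6), Sh3bp2 (11.9), Mrgprb1 (1.08), Fgl2 (62.9), Osmr (39.03), Fos (30.2), Ier5 (10.5), Rpl39 (16.1), Errfi1 (33.1) and Zbtb16 (129). Others were Gadd45g (4.799) and Cd209g (2.11) in vehicle 2, Mylk4 (572) and Ndufb3 (26.1) in vehicle 4, Ucp1 (0.113) in vehicle 5, Igf1 (18.3) in weekly 1, Rora (149.6) in weekly 2, Lcn2 (2.63) and Mcpt4 (1.94) in daily 5. 

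The regimens differed from each other in the genes below by the limma test of daily minus weekly on the deposited scale (adjusted p under 0.05). The log2 difference was negative for Socs3 (-0.78), Rrad (-1.35), Pnpla3 (-1.77), Ctsl (-0.85), Igf1 (-0.72), Scd2 (-0.72), Acly (-3.21), Tkt (-3.17), Fabp5 (-1.65), Ucp1 (-3.91), Hsp90aa1 (-0.88), Pfkp (-0.96), Ndufb3 (-0.99) and Col4a2 (-0.75). It was also negative for Mmp9 (-1.92), Ccnd2 (-0.82), Hbb-bs (-0.91), Hba-a1 (-1.16), Fasn (-3.68), Adipoq (-2.56), Anxa6 (-0.58), Bcat2 (-0.55), Lcn2 (-0.998), Cd209f (-0.74), Sh2d5 (-1.13), Fgl2 (-1.13), Smyd2 (-0.57), Clec14a (-0.80), Cish (-0.65) and Junb (-0.87). It was positive for Arrdc2 (1.39), Ddit4 (1.48), Greb1 (1.28) and C7 (0.74). With TMM scaling the same limma test did not call several of the negative ones. Among these were Socs3 (adjusted p = 0.133), Igf1 (0.114), Scd2 (0.147), Col4a2 (0.194) and Pfkp (0.0576). It then called other genes higher in daily, such as Foxo1 (adjusted p = 0.000681), Cblb (0.0109) and Zfp36 (0.0454). The share of negative differences thus depends on the scaling.

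Among 505 features without a gene name that passed the filter, 6 lay above and 5 below all vehicle libraries in all 10 prednisone libraries, shares of 1.19% and 0.99%.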

How the results depend on the processing

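Genes that rose and fell in the pooled comparison numbered 879 and 617 with TMM scaling, 957 and 650 with edgeR, 1105 and 840 with DESeq2, and 643 and 774 with median centring, which put 45.4% of calls higher against 68.0% on the deposited scale. They numbered 6 and 2 with vehicle averaged, 7 and 2 with vehicle averaged under TMM scaling, 2406 and 670 without weekly 4 and daily 3, and 1549 and 1284 without both under TMM scaling. With 1 library left out they ranged from 291 to 1259 and from 121 to 478. The 1259 is without daily 3. Genes higher and lower in daily than weekly numbered 292 and 371 with TMM scaling, 326 and 318 with median centring, 292 and 454 with edgeR, 413 and 654 with DESeq2 and 17 and 215 with vehicle averaged. Those lower in daily numbered 99 with vehicle averaged under TMM scaling. Those higher numbered 420 without weekly 4 and daily 3 and 811 without both under TMM scaling. With 1 library left out they ranged from 41 to 170 and from 477 to 1718. Separating genes above and below numbered 387 and 348 with TMM scaling, 288 and 462 with median centring, 807 and 257 without weekly 4 and daily 3, and 534 and 520 without both under TMM scaling, and ranged from 170 to 687 and from 155 to 256 with 1 library left out. The cause was not tested. The replicate block gave 475 and 208 calls, 629 of the 703 shared, and the pairing hint was weak (3 of 15 libraries correlated best with their own number). Of 132 called genes named, 98 kept their call in every alternative other than the 2 with vehicle averaged. Of these 98, 8 kept it in those 2 as well (Card14, Dbp, Mt1, Mt2, Nfil3, Per3, Rrad and Socs3). Lost without at least 1 library, as single libraries were left out in turn, were the calls of these genes, with the highest adjusted p and the library left out for it: Anxa2 (0.0865, vehicle 2), Cd209a (0.0855, vehicle 5), Cish (0.0964, vehicle 4), Cpt1a (0.0538, vehicle 5), Ctgf (0.0792, vehicle 1), Dcn (0.0894, vehicle 5), Folr2 (0.0552, vehicle 3), Gpnmb (0.0824, vehicle 5), Hsp90aa1 (0.0685, vehicle 4), Hspb8 (0.0615, vehicle 2), Igf1 (0.0666, vehicle 1), Lmod1 (0.0944, vehicle 4), Map1lc3a (0.103, vehicle 2), Mmp9 (0.0768, vehicle 3), Pdk4 (0.11, vehicle 5), Pdp1 (0.058, vehicle 1), Pim1 (0.117, vehicle 4), Prx (0.151, vehicle 3), Retnla (0.0924, vehicle 4), Rn7sk (0.13, vehicle 5), Rpl39 (0.0712, vehicle 3), Rps27 (0.0756, vehicle 2), Serpina3n (0.108, vehicle 3), Smad3 (0.0618, vehicle 4), Stat2 (0.113, vehicle 4), Tpsb2 (0.0653, vehicle 5), Trim63 (0.0827, vehicle 1) and Ucp1 (0.054, vehicle 5). Reversed, all of them uncalled: Foxp3 (-0.0404 with median centring, -0.0014 with TMM scaling without weekly 4 and daily 3, -0.0319 to 0.157 with 1 library left out), Alas2 (-0.0026 with median centring), Dmd (0.0775 without weekly 4 and daily 3), Per1 (-0.147 to 0.0573 with 1 library left out), Adipoq (0.0297 with edgeR, 0.0077 with DESeq2, 0.132 without weekly 4 and daily 3, 0.0397 with TMM scaling without weekly 4 and daily 3, -0.199 to 0.0444 with 1 library left out). Depth limits genes near 3 reads (up to 1.08 CPM), which includes the mast cell genes in weekly 4.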
